A study of Drosophila melanogaster with 3 samples.

Results

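Binding of dmrt11E at the genes of the vacuolar ATPase (V-ATPase) and of the Rab GTPases was read from ChIP-seq peak lists of Drosophila melanogaster embryos. The dmrt11E protein belongs to the DM-domain transcription factors, the family of doublesex. The embryos, of both sexes and aged 2 to 10 h, were whole organisms of a transgenic line that stably expressed dmrt11E fused at its C-terminus to green fluorescent protein, and chromatin was precipitated through that tag. All 3 biological replicates form 1 group. Lists from untagged embryos were not analysed here, and factor binding and the recovery of open chromatin cannot be told apart. The labels number the replicates without naming separate collections, so the spread between them describes these samples and may be technical.

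The genes were chosen by symbol alone: a protein-coding gene whose symbol begins with Vha, or with Rab or RabX and a number. The rule found 69 of 13968 protein-coding genes, of which 33 were V-ATPase genes and 36 were Rab genes. The Rab genes comprised 33 GTPases and the regulators Rab3-GAP, Rab3GAP1 and Rab3-GEF. From general knowledge of where each gene is used, and not from these files, 28 genes were classed as broadly used and 22 as tissue-limited (most of them in testis, neurons or pigment cells), while 19 were given no class. The classes were set with earlier results of these data known, so they were not blind to them.

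The V-ATPase is a rotary proton pump that acidifies endosomes, lysosomes and secretory vesicles. Its V1 sector hydrolyses ATP on the cytosolic side, and its V0 sector carries protons through the membrane. Rab GTPases are molecular switches that mark membrane compartments and recruit the tethers and motors that move vesicles between them. In Drosophila most V1 and V0 subunits used in all cells have close relatives known mainly from the male germline or a few other tissues.

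The sequences printed here come from windows around IDR promoter summits, most of them among the strongest of each family. They reach 50 bp to either side of the summit and were shortened where a window ran into an annotated untranslated region, read 5′ to 3′ on the strand of the named gene from the RefSeq copy of the dm6 assembly. Rab30 and Rab8 were added to the 4 highest-ranked genes of each family after their values were seen, because their windows hold TATCGATA. Capitals mark TATCGATA and CGATA on either strand. The window of Vha100-2 lies wholly in an untranslated region and that of Rab39 nearly so, and neither is printed. The stretch left for Rab8 does not reach its summit, at 19871066.
Vha16-5 (chr2L:10737275-10737344, minus strand): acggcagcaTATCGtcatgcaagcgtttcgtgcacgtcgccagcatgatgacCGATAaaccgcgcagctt
Vha68-1 (chr2L:13004230-13004330, minus strand): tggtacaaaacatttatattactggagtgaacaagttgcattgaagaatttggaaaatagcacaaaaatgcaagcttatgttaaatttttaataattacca
VhaM9.7-b (chr3L:21539504-21539604, plus strand): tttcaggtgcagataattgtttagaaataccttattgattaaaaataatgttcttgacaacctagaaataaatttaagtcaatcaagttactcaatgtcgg
Rab5 (chr2L:2363708-2363808, minus strand): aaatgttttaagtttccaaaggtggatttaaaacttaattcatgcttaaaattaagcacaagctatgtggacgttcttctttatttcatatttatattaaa
Rab3GAP1 (chr2L:1611278-1611378, minus strand): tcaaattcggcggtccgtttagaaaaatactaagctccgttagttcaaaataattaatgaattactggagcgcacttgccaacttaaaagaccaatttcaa
Rab11 (chr3R:21111189-21111289, plus strand): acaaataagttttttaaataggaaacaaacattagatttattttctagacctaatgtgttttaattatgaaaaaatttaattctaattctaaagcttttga
Rab30 (chr2L:7032644-7032720, minus strand): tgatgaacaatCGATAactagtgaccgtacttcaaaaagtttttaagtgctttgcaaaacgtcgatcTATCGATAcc
Rab8 (chr3L:19871079-19871116, minus strand): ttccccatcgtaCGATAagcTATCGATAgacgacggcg

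Each of the 3 replicate lists and the pooled list held 30000 peaks, a fixed number, and a −log10 q of at least 2 was reached by 9206, 15075 and 10842 peaks of replicates 1, 2 and 3 and by 11618 pooled peaks. The authors' IDR set, to which they applied a threshold for reproducibility, held 6706 peaks, which were the 6706 of highest signal in the pooled list. Not each of them was strong in every replicate: 539 were overlapped by a peak among the 6706 strongest in only 1 replicate, and 14 in none. Signal values are the authors' own and have a scale of their own in each list, so peaks were ranked within each list, with rank 1 the strongest. A promoter summit is a peak summit within 500 bp of an annotated transcription start site (TSS) of the gene. Read depth is not given in the lists, and the intervals below are exact 95% binomial intervals over genes that cover counting error only.

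In both families an IDR promoter peak was counted at a larger share of broadly used than of tissue-limited copies, with overlapping intervals. Of the 28 broadly used copies, 13 had an IDR promoter summit (46.4%, interval 27.5 to 66.1%), against 2 of the 22 tissue-limited copies (9.09%, interval 1.12 to 29.2%). The share over all protein-coding genes was 23.8%, which lies between these values, below the interval of the broadly used copies and within that of the tissue-limited ones. Among the V-ATPase genes the counts were 8 of 14 broadly used (interval 28.9 to 82.3%) and 2 of 11 tissue-limited copies (2.28 to 51.8%). Among the Rab genes they were 5 of 14 (12.8 to 64.9%) and 0 of 11 (0 to 28.5%). The genes of no class had 7 of 19, made up of 2 of 8 V-ATPase genes and 5 of 11 Rab genes. The 22 tissue-limited copies include 6 X-linked Rab9-like copies, which had no promoter summit in any list. At most of them, as given below, a lack of binding and a lack of unique reads cannot be told apart. The intervals count them as independent genes, and no share was computed without them.

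All 69 genes together were closer to the average gene. An IDR promoter summit was found at 22 of them (31.9%, interval 21.2 to 44.2%), against 23.8% of all protein-coding genes, a value within that interval. By family, 12 of 33 V-ATPase genes (36.4%, interval 20.4 to 54.9%) and 10 of 36 Rab genes (27.8%, interval 14.2 to 45.2%) had one. The peaks that carried these genes were not high ones: their median rank was 4098.5 over the 22 genes, against 3010 over the 3323 protein-coding genes with an IDR promoter summit. Only 8 of the 22 (36.4%) were among the 3353 IDR peaks of higher signal, against 55.3% of those 3323 genes.

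The split between the classes was seen in each replicate. Among the 6706 peaks of highest signal, broadly used copies had a promoter summit at 39.3% in replicate 1, 53.6% in replicate 2 and 46.4% in replicate 3 (46.4% ± 7.14, SD, n = 3). Tissue-limited copies had one at 9.09%, 9.09% and 4.55% (7.58% ± 2.62), and all protein-coding genes at 23.9%, 24% and 23.4%. The difference, broadly used minus tissue-limited, was 30.2, 44.5 and 41.9 percentage points (38.9 ± 7.61). It exceeded the spread between replicates, but each list scores the same genes, so that spread does not cover the sampling of genes. The lowest broadly used share, 39.3%, was above the highest tissue-limited share, 9.09%. With 3 replicates an exact sign-flip test cannot reach the usual threshold, and none was run. The same shares were 33.3% ± 6.06 for V-ATPase genes and 27.8% ± 4.81 for Rab genes. These SDs describe the lists, and the IDR intervals of both families over genes, given above, hold the share over all genes.

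**Figure D1:**
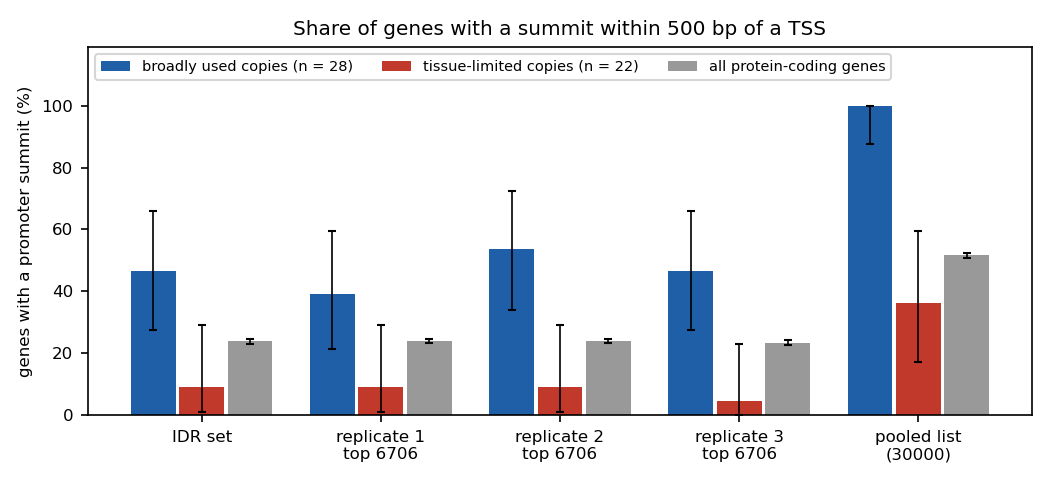
Share of genes with a promoter summit (%) in the IDR set, in the 6706 strongest peaks of each replicate and in the pooled list, for broadly used copies (blue), tissue-limited copies (red) and all protein-coding genes (grey); whiskers are exact 95% binomial intervals. Broadly used copies stand above tissue-limited copies in every list, at 46.4% against 9.09% in the IDR set and at 100% against 36.4% in the pooled list.

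Among weaker peaks the same order held. In the pooled list of 30000 peaks, all 28 broadly used copies had a promoter summit (interval 87.7 to 100%), against 8 of 22 tissue-limited copies (36.4%, interval 17.2 to 59.3%), with 51.6% of all protein-coding genes. In the whole list of replicate 1, 28 of the 28 broadly used copies had one, in replicate 2 there were 27 and in replicate 3 there were 24. The tissue-limited copies had 7 in each replicate, and all protein-coding genes 51.9%, 52.2% and 50%. Here too the 22 tissue-limited copies include the 6 X-linked Rab9-like copies, which lowers their share whether binding or unique reads are lacking there. The 15 broadly used copies that missed the IDR set had pooled ranks between 7031 and 24671, with a median of 9378. Of these, Rab6, VhaAC39-1, Vha14-1 and Vha68-2 ranked beyond 11618, the number of pooled peaks that reached a −log10 q of 2. The pooled summits of the tissue-limited Rab26, RabX4, Rab32 and Vha36-3 also ranked beyond it. Just outside the IDR limit of 6706 lay Rab10 (7031), Rab1 (7036), Rab27 (7296) and Vha44 (7393), and just inside it Rab23 (6183), VhaM9.7-a (6142), Vha13 (6118) and Vha36-1 (5541).

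The V-ATPase genes were next taken by subunit, beginning with V0. The strongest peak of all 69 genes was at Vha100-2 (FBgn0028670), one of the genes of subunit a, which forms the path of the protons. The peak, at 3R, 18397039 to 18397384 (dm6), ranked 420 in the IDR set with a pooled signal of 1394.5, and its gene's best promoter peak ranked 500, 364 and 462 in replicates 1, 2 and 3. Its summit lay 287 bp upstream of the nearer of 2 starts of Vha100-2, inside that gene's span of 18390323 to 18399169. It also lay 220 bp downstream of the start of Vti1b, a SNARE gene on the opposite strand, and so inside both genes. Of the other a copies, Vha100-1, used in neurons, had a pooled rank of 9616 (11997, 9974 and 9225 in the replicates). Vha100-3, Vha100-4 and Vha100-5 had no promoter summit in any list.

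Subunit c builds the ring that turns as protons pass. Its tissue-limited copy Vha16-5 (FBgn0032294, 2L, 10737147 to 10737517) ranked 620, with replicate ranks of 817, 454 and 732, and was thus stronger in every replicate than the widely used Vha16-1. The summit at Vha16-5 was 282 bp upstream of its start and 20 bp upstream of CG12299, the nearer gene, which runs the opposite way. Vha16-1 (FBgn0262736, 2R, 6633183 to 6633357) ranked 2903, with 2302, 3094 and 2847 in the replicates, and had no other coding start within 500 bp. Vha16-2 had a pooled rank of 14701, Vha16-3 a summit at rank 18484 in replicate 3 alone, and Vha16-4 none. In the related c'' subunit, the broadly used VhaPPA1-1 (FBgn0028662, 3R, 14903971 to 14904374) ranked 4897, with 7285, 6028 and 4461 in the replicates. Its tissue-limited partner VhaPPA1-2 had no promoter summit in any list.

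Subunit d couples the rotor to that ring, and here the order of the classes was turned round. The tissue-limited VhaAC39-2 (FBgn0039058, 3R, 23159260 to 23159663) ranked 5275, with 3568, 6244 and 8263 in the replicates. The broadly used VhaAC39-1 had a pooled rank of 17153, with 16636, 18279 and 27129, so all 3 replicates put VhaAC39-2 ahead. The small subunit e had peaks at VhaM9.7-b (FBgn0028663, 3L, 21539475 to 21539661), rank 2801 with 4333, 2710 and 2557 in the replicates, and at VhaM9.7-a (FBgn0035521, 3L, 4262400 to 4262803), rank 6142 with 5626, 5845 and 7669. At VhaM9.7-c each replicate had a promoter summit (4224, 4968 and 11988), 20 bp upstream, 47 bp upstream and 18 bp downstream of the start, yet the pooled list had none within 500 bp. VhaM9.7-d had summits in replicate 2 (27582) and replicate 3 (20331) only. The accessory subunit gene VhaAC45 had a pooled rank of 7925, and its relative VhaAC45RP no promoter summit in any list.

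In V1, subunit A holds the catalytic site for ATP. Its peak lay at Vha68-1 (FBgn0265262, 2L, 13004118 to 13004443), a copy given no class, with rank 1640 and replicate ranks of 2120, 2587 and 1147. Its summit was 173 bp upstream of Vha68-1 and 200 bp upstream of mTor, the gene of a growth-controlling kinase that is itself activated at lysosomes. The broadly used Vha68-2 had a summit at rank 9290 of replicate 1 and at rank 24671 of the pooled list but in neither other replicate, and Vha68-3 had none. Subunit A therefore carried its strong peak at a copy other than the one classed as broadly used.

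The other catalytic-head subunit, B, is made by a single gene, Vha55 (FBgn0005671, 3R, 12627652 to 12628055), whose peak ranked 3475 with 3040, 3598 and 4004 in the replicates, 25 bp upstream of the start. The stalk subunits E and G are also single genes. Vha26 (subunit E, FBgn0283535, 3R, 5591360 to 5591763) ranked 3586 with 3317, 3333 and 4275. Vha13 (subunit G, FBgn0283536, 3R, 19644536 to 19644939) ranked 6118 with 15585, 8275 and 4646, the widest spread among the V-ATPase genes with an IDR peak. The rotor subunit D had its peak at Vha36-1 (FBgn0022097, 2R, 15541209 to 15541612), rank 5541 with 3152, 5804 and 7798, while Vha36-3 had a pooled rank of 28941 and Vha36-2 no promoter summit. Rotor subunit F had no IDR peak: Vha14-1 had a pooled rank of 20959 and Vha14-2 none. Subunits C and H, which take part in joining and regulating the sectors, had pooled ranks of 7393 at Vha44 and 9975 at VhaSFD.

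Counted by subunit, 7 of the 8 V1 and V0 subunits with several gene copies had an IDR promoter peak at some copy. In 5 of them it was exactly 1 copy, and in 2 (c and e) it was 2 copies. Of the 5 subunits made by 1 gene, 3 had an IDR promoter peak (B, E and G), and all 5 had a pooled one. The strongest copy was a broadly used one for subunits a, c'', D and e. It was the tissue-limited one for c and d, and the copy of no class for A.

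**Figure D2:**
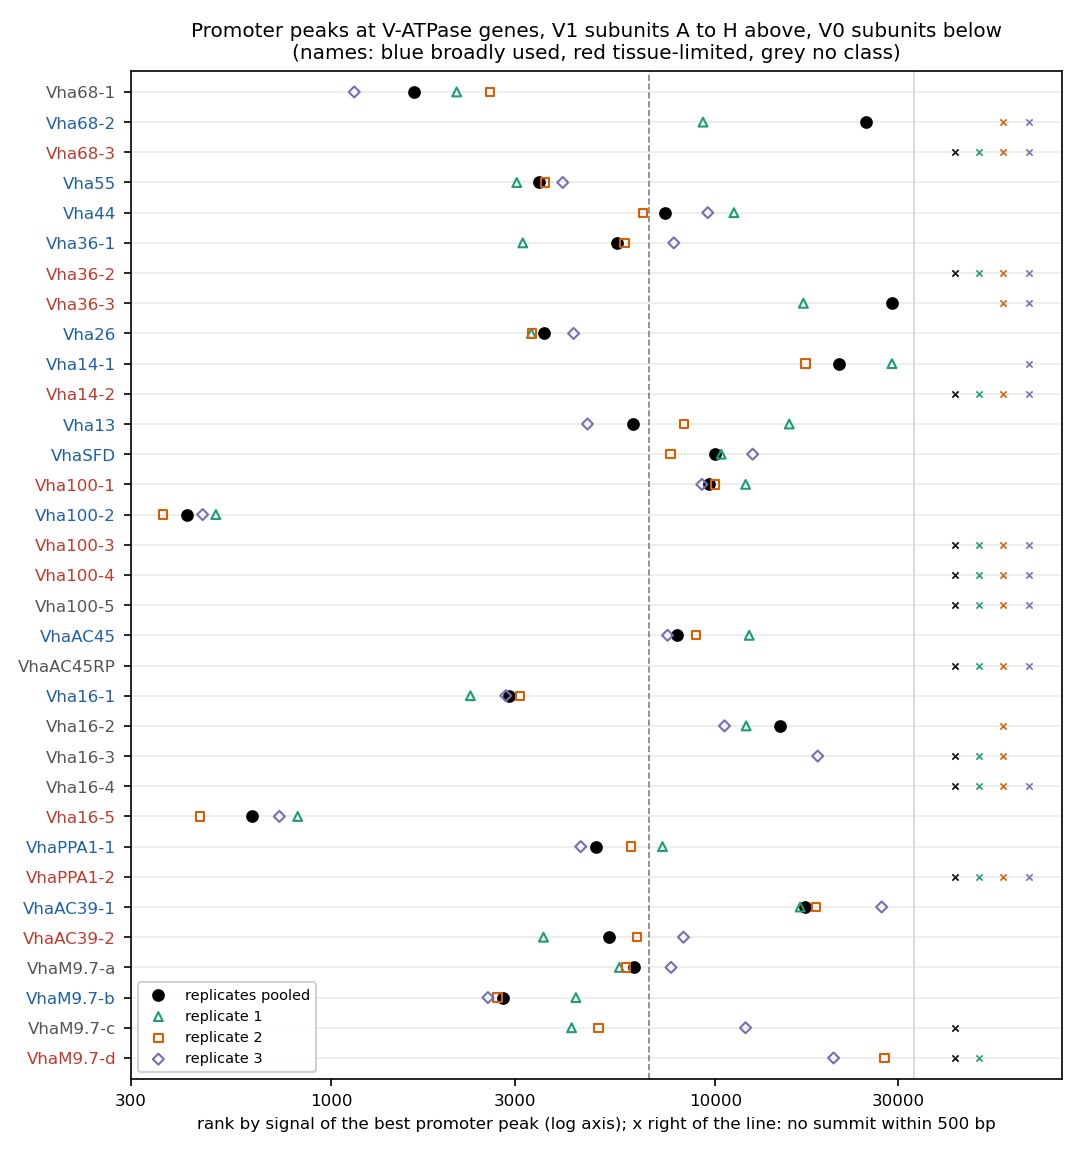
Rank by signal (log axis, rank 1 strongest) of the best promoter peak of each V-ATPase gene in the pooled list (black) and in replicates 1 to 3 (open symbols); the dashed line is the IDR limit of 6706 and crosses mark lists with no summit within 500 bp. Vha100-2 and Vha16-5 stand apart at the left in every replicate, and most names in red have crosses only.

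The Rab genes were taken by compartment, beginning with early and recycling endosomes. Rab5, the switch of early endosomes (FBgn0014010, 2L, 2363574 to 2364052), had the strongest peak of the family at rank 752, with 687, 683 and 850 in the replicates. It peaked 254 bp upstream of the nearest of 6 starts of Rab5, an internal one, and so inside the gene's span of 2359142 to 2365273. No start of another coding gene was within 500 bp. Rab11, the switch of recycling endosomes (FBgn0015790, 3R, 21111142 to 21111242), ranked 3984, but its replicate ranks were 14679, 3556 and 3522, so replicate 1 was far weaker than the others. Rab21, which acts on early endosomes (FBgn0039966, X, 23013211 to 23013614), ranked 5528 with 4581, 6183 and 6379, its summit 4 bp upstream of the start.

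Next came the Rab genes of secretion and the Golgi. Rab8, of transport from the Golgi to the surface (FBgn0262518, 3L, 19870864 to 19871267), ranked 4556 with 4312, 4207 and 5460. Its summit, 12 bp downstream of the start, was the only one of the 22 that was not upstream of the gene's nearest start. Rab10, which guides basement membrane secretion in epithelia, had a pooled rank of 7031. Rab1, of transport from the endoplasmic reticulum to the Golgi, ranked 7036 in the pooled list, with 12268, 4330 and 12813 in the replicates. Rab2 and Rab6, which act at the Golgi, had pooled ranks of 8208 and 15102, and neither had a summit in replicate 3. Of the later endosomal Rab genes, Rab7 had a pooled rank of 9315. Rab4 (10824), Rab14 (10501), Rab18 (7438) and Rab35 (9378) likewise had a pooled promoter summit that missed the IDR set.

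The regulators and the less studied Rab genes added further IDR peaks. Rab3GAP1 (FBgn0051935, 2L, 1611147 to 1611477), the catalytic subunit of the GTPase activator of Rab3, ranked 1148 with 1319, 1008 and 1250 in the replicates. Its partner Rab3-GAP ranked 8080 in the pooled list and the exchange factor Rab3-GEF had no promoter summit in any list. Rab39 (FBgn0029959, X, 7734426 to 7734742) ranked 1904 with 2547, 2244 and 1540. Rab30 (FBgn0031882, 2L, 7032492 to 7032895) ranked 4213 with 3199, 4138 and 6609. Each of these IDR peaks was closer to the start of another gene, as given below.

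Rab40 (FBgn0030391, X, 12463026 to 12463429), a Rab of ubiquitin ligases, ranked 4845 with 7708, 7393 and 3668. RabX1 (FBgn0015372, 2R, 23523506 to 23523909) ranked 5141 with 6485, 4409 and 5292. Rab23 (FBgn0037364, 3R, 5685330 to 5685733), a gene of planar cell polarity in the wing, ranked 6183 with 8606, 6385 and 6484. Of these, RabX1 alone was within the 6706 strongest peaks of all 3 replicates. Rab19 (10579) and RabX6 (20869) were in the pooled list, and Rab9 and RabX5 had a promoter summit in replicate 2 only, at 20373 and 23255.

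None of the 11 tissue-limited Rab genes had an IDR promoter summit (interval 0 to 28.5%), and the 23.8% of all protein-coding genes lies within that interval. The nearest was Rab27, of secretory vesicles, with a pooled rank of 7296 and 7731, 6812 and 10646 in the replicates. Rab26 (19291), RabX4 (20473) and Rab32, a gene of eye pigment granules (21712), were weaker, and each lacked a promoter summit in 1 replicate. Rab3, the switch of synaptic vesicle release, had no promoter summit in any list.

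The X-linked copies Rab9D, Rab9Db, Rab9E, Rab9Fa, Rab9Fb and RabX2 also had none, 0 of 6 in each of the 5 lists (interval 0 to 45.9%). Most of these copies lie in repeated sequence: within 500 bp of their starts, 44.3%, 61.3%, 74.2%, 69.9%, 5.05% and 31.96% of the 32-base words occur more than once in the genome. The copies were not compared with each other. Their median was 52.8%, against 0% over all protein-coding genes, and no other gene of either family exceeded 1.96%. How the authors treated reads that match several places is not given in the sources used here, so at the copies with much repeated sequence a lack of binding and a lack of unique reads cannot be told apart. At Rab9Fb, where 5.05% of the words were repeated, no list had a summit either.

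**Figure D3:**
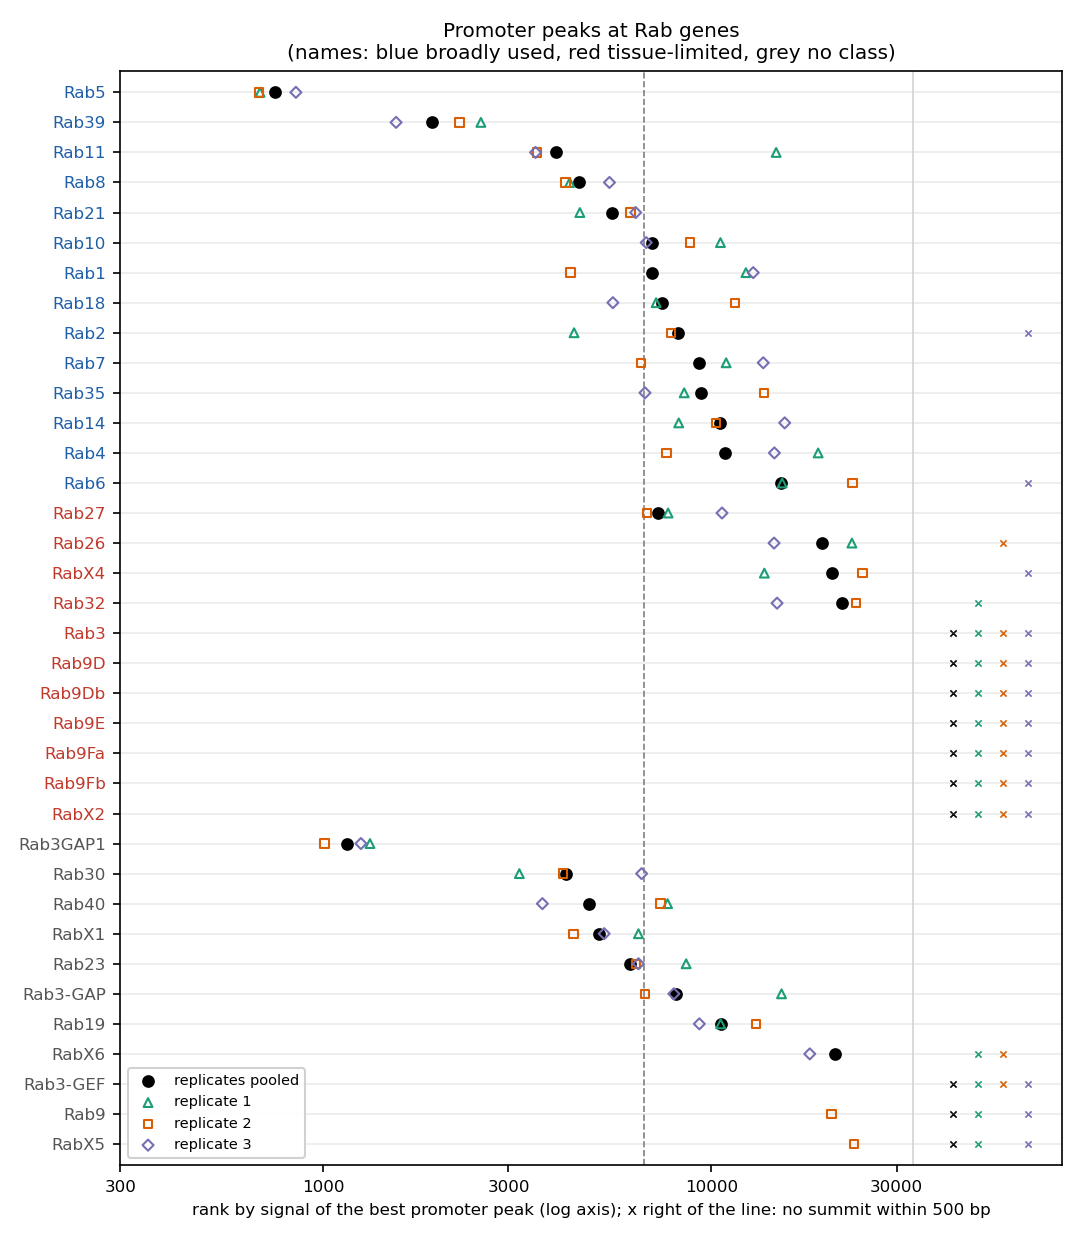
Rank by signal (log axis, rank 1 strongest) of the best promoter peak of each Rab gene and regulator in the pooled list (black) and in replicates 1 to 3 (open symbols), broadly used copies above, tissue-limited copies in the middle and genes of no class below; the dashed line is the IDR limit of 6706 and crosses mark lists with no summit within 500 bp. Rab5 and Rab3GAP1 lie furthest left, and all 11 tissue-limited genes lie right of the limit or have no summit.

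Most of these peaks lay between 2 genes that start back to back. Of the 22 summits, 21 (95.5%) were upstream of the nearest start of the Vha or Rab gene. The share was 89.9% over all protein-coding genes with an IDR promoter summit, and the median distance was 157.5 bp, against 151 bp. The summits at Vha100-2 and Rab5 were upstream of an internal start and so inside the gene's own span. At 17 of the 22 (77.3%) the start of another coding gene on the opposite strand was also within 500 bp of the summit, against 58.4% of those 3323 genes. The peak rule assigns such a summit to both genes. At 8 of the 22 the other gene was the nearer one: Vha100-2, Vha16-5, Rab3GAP1, Rab39, VhaM9.7-b, Vha26, Rab30 and Vha13. Over all protein-coding genes, 2400 of the 3323 had an IDR promoter summit to which no other coding gene was nearer.

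The partners themselves were of many kinds. The summit of VhaM9.7-b was 308 bp upstream of its own start and 107 bp upstream of COX8, which encodes a subunit of cytochrome c oxidase. That of Vha26 was 201 bp upstream of its start and 103 bp upstream of noi, a splicing factor gene. That of Rab39 was 306 bp upstream of its start and 34 bp downstream of that of Pdp, a phosphatase of pyruvate dehydrogenase. The summit shared by Rab3GAP1 and CG14352 was 171 and 82 bp upstream of them, and that shared by Rab30 and Caper, a splicing factor gene, 88 and 27 bp upstream. At Vha13 the summit was 352 bp upstream of the start and 288 bp upstream of Nup58, a nuclear pore gene. The summits at Vha55 and Snx3, an endosomal sorting nexin gene, and at Rab21 and Coa7, an assembly factor of cytochrome c oxidase, lay nearer the V-ATPase or Rab gene.

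**Figure D4:**
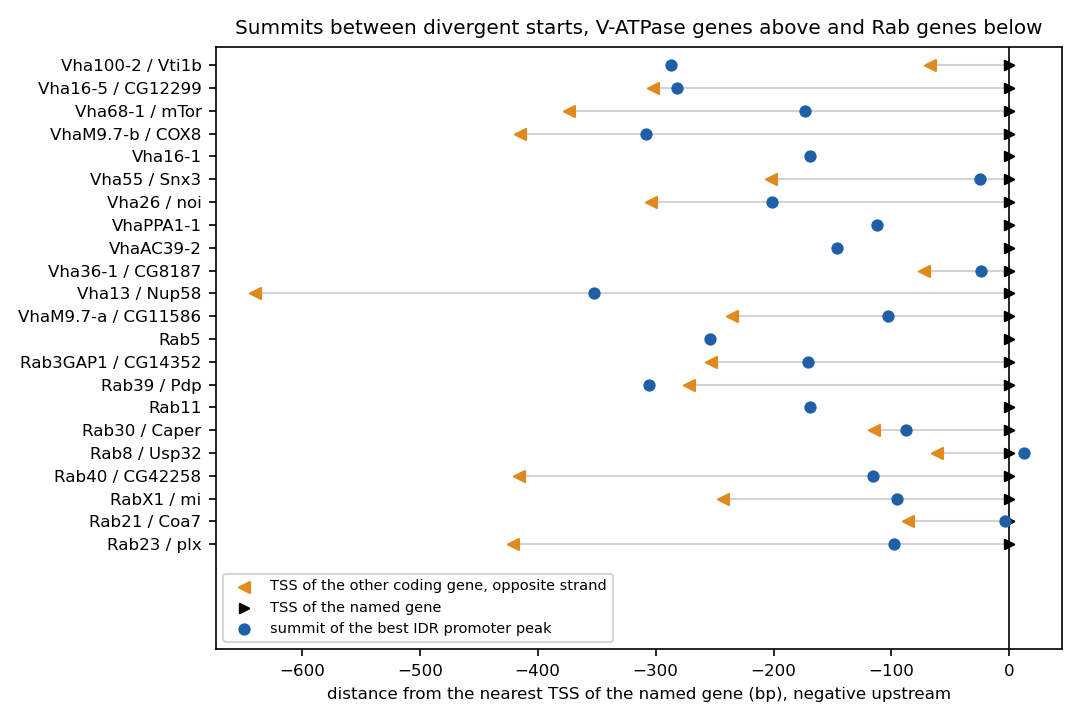
Position of the summit of the best IDR promoter peak (blue) relative to the nearest start of the V-ATPase or Rab gene at 0 bp (black) for the 22 genes that have one, with the start of the other coding gene on the opposite strand where there is one (orange); negative is upstream. Of the summits, 21 lie upstream, 17 have such a partner, and those of Vha100-2 and Rab39 lie beyond the partner's start, inside the partner.

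Because shared promoters were frequent, the classes were compared with and without a neighbour. Another coding start lay within 500 bp of a start of 17 of the 28 broadly used copies (60.7%), 4 of the 22 tissue-limited copies (18.2%) and 30.8% of all protein-coding genes. With such a neighbour, 9 of 17 broadly used copies, 1 of 4 tissue-limited copies and 45.0% of all genes had an IDR promoter summit. Without one, the counts were 4 of 11 broadly used copies (36.4%), 1 of 18 tissue-limited copies (5.56%) and 14.3% of all genes. In the pooled list the genes with a neighbour had a promoter summit at 17 of 17 broadly used copies, 4 of 4 tissue-limited copies and 77.7% of all genes, so the classes were equal there. Those without a neighbour had one at 11 of 11 broadly used copies, 4 of 18 tissue-limited copies (22.2%) and 40.0% of all genes. Each part of this split holds few genes, and the 18 tissue-limited copies without a neighbour include the 6 X-linked Rab9-like copies. When each peak was given only to the coding gene whose start was nearest, a setting added after seeing the data, 8 of 28 broadly used copies (28.6%) and 1 of 22 tissue-limited copies (4.55%) kept an IDR promoter summit, against 17.2% of all genes. The V-ATPase share was then 21.2%.

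Support in the replicates was uneven among the 22 genes. A peak among the 6706 strongest overlapped the IDR promoter peak in all 3 replicates at 14 genes, in 2 replicates at 6 genes and in 1 replicate at 2 genes, Vha13 and Rab40. Over all protein-coding genes with an IDR promoter summit, 72.0% were supported in all 3 replicates. Keeping only IDR peaks overlapped by a strong peak of both other replicates left 5386 peaks without replicate 1, 4894 without replicate 2 and 5139 without replicate 3. The V-ATPase share was then 24.2% without replicate 1 and 21.2% without replicate 2, against 19.7% and 18.2% of all genes. The tissue-limited share was 4.55% without replicate 1 or 2, where VhaAC39-2, unsupported by replicate 3, was lost. The broadly used share was 39.3%, 32.1% and 35.7% without replicates 1, 2 and 3, above the 19.7%, 18.2% and 18.8% of all genes each time.

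Peaks in the gene body, away from the gene's own start, were few. An IDR summit lay there in 6 of the 69 genes (8.70%, interval 3.26 to 17.97%), and 8.94% of all protein-coding genes had one. Only 1 was a V-ATPase gene, Vha100-2, with an intronic peak of rank 4083 (11995, 3025 and 3958 in the replicates). The others were Rab genes, 5 of 36 (13.9%), a number that was the same among the 6706 strongest peaks of each replicate.

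At each of the 5 Rab genes the best body peak outranked any promoter peak of the gene in the pooled list. Rab9, which returns receptors from late endosomes to the Golgi in mammals, had no IDR promoter summit but intronic peaks of ranks 1274 (592, 1330 and 2457 in the replicates; 2L, 19434311 to 19434602) and 5647. In Rab11 an intronic peak at 3R, 21113077 to 21113458, 1863 bp from the start, ranked 1685 with 896, 1689 and 2569, ahead of its promoter peak in every replicate. Rab23 had intronic peaks of ranks 1638 (1952, 1433 and 1800; 3R, 5683010 to 5683270) and 6251. Rab14 had one of rank 2400 (2129, 2004 and 2601), 580 bp from its start. At the tissue-limited Rab32 the body peaks ranked 3944, in an exon and within 500 bp of the start of lncRNA:CR44284, and 4180, in an intron.

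The promoter sequences of the classes were then compared for short motifs of known promoter factors, searched on both strands from 250 bp before to 50 bp after the outermost start. CGATA, the site of the insulator protein BEAF-32, was in 24 of 28 broadly used promoters (85.7%), 6 of 22 tissue-limited promoters (27.3%) and 47.4% of all protein-coding promoters. TATCGATA, the DNA replication-related element (DRE), which itself contains CGATA, was in 8 of 28 (28.6%), 1 of 22 (4.55%) and 9.36%. It was mostly a feature of the Rab family, with 11 of 36 Rab promoters (30.6%) and 2 of 33 V-ATPase promoters (6.06%). The broadly used promoters without CGATA were those of Rab4, Vha14-1, VhaAC39-1 and VhaAC45. The tissue-limited ones with it were those of Rab27, Vha100-4, Vha14-2, Vha16-5, Vha68-3 and VhaM9.7-d. Among V-ATPase genes alone, CGATA was in 11 of 14 broadly used (78.6%) and 5 of 11 tissue-limited promoters (45.5%), the latter near the share over all genes. Of the 11 tissue-limited Rab promoters only that of Rab27 held it, and the 6 related X-linked Rab9-like copies among them all lacked it.

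The other motifs differed less between the classes. GGTCACACT, the site of M1BP, was in 3 of 28 broadly used and 1 of 22 tissue-limited promoters, with 6.04% of all. GAGAG, bound by the GAGA factor, was in 7 of 28 (25%) and 4 of 22 (18.2%), with 29.8% of all. CACGTG, the E-box bound by Mitf, a regulator of V-ATPase genes, was in 3 of 33 V-ATPase promoters (Vha44, VhaAC45RP and VhaM9.7-d) and 1 of 36 Rab promoters (Rab14), with 4.23% of all. ACAATGT, the core of sites bound by doublesex, was in 2 of 28 and 3 of 22, the tissue-limited ones being the related X-linked copies Rab9Db, Rab9E and Rab9Fa, with 4.63% of all.

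The same motifs were searched within 50 bp of each summit, a shorter window whose shares are not comparable with those of the promoters. There CGATA was at 5 of 22 summits (22.7%), against 21.0% of the 2308 distinct IDR peaks at protein-coding promoters. The 5 were Rab21, Rab30, Rab8, Vha16-5 and Vha36-1. TATCGATA was at the summits of Rab30 and Rab8 only, both printed above, against 2.90% of all such peaks. ACAATGT and CACGTG were at 0 of 22, against 1.52% and 0.737% of all. GAGAG was at 1 of 22 (4.55%), Vha100-2, against 5.94% of all. The windows printed for Vha68-1, VhaM9.7-b, Rab5, Rab3GAP1 and Rab11 hold none of the 6 motifs; a lack of these letters says nothing of the factors.

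**Figure D5:**
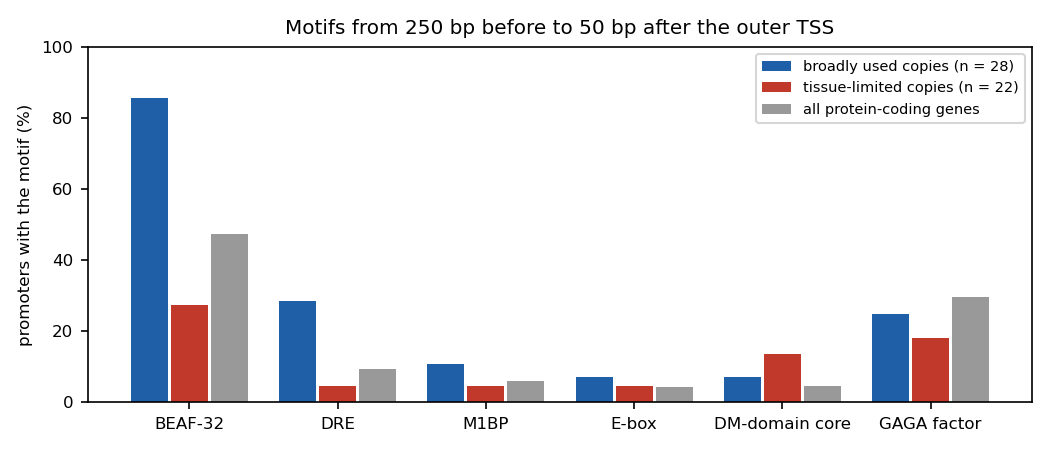
Share of promoters (%, 250 bp before to 50 bp after the outer TSS) that hold each of the 6 motifs, for broadly used copies (blue), tissue-limited copies (red) and all protein-coding genes (grey); BEAF-32 stands for CGATA, DRE for TATCGATA, M1BP for GGTCACACT, E-box for CACGTG, DM-domain core for ACAATGT and GAGA factor for GAGAG. The widest gap between the classes is that of CGATA, at 85.7% against 27.3%. Among V-ATPase genes alone the CGATA shares are 78.6% and 45.5%.

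Partners of both families outside the symbol rule were listed from general knowledge, with earlier results of these data known. Of these 27 genes, 14 (51.9%) had an IDR promoter summit and 25 (92.6%) a pooled one, against 23.8% and 51.6% of all protein-coding genes. Starts of other coding genes near the partners were not counted. Over all genes the shares were 45.0% and 77.7% with such a start within 500 bp, and 14.3% and 40.0% without. Peaks lay at the genes of both subunits of the Rab7 exchange factor, Mon1 (rank 801; 786, 869 and 800 in the replicates) and Ccz1 (3642). Peaks also lay at the genes of both subunits of the enzyme that attaches the lipid anchor to Rab proteins, RabGGTa (2038) and RabGGTb (5782), and at Gdi (4733), which extracts Rab proteins from membranes.

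Other partners with an IDR promoter peak acted downstream of Rab proteins. They included the Rab5 effector gene Rbsn-5 (1598), the Rab11 motor gene didum (2866), and the lysosomal tethering genes car (1837), Vps11 (4658) and lt (5931). Rbcn-3A (3363), a regulator of the V-ATPase, and mtd (3069), whose relatives bind the V-ATPase in mammals, had one too, as did Rich (3018), whose yeast relative is an exchange factor. Mitf had one at rank 4143 whose summit was 496 bp from the start, with 3076, 15843 and 6690 in the replicates. The remaining partners had no IDR promoter summit. Among them were the tethering genes Vps16A (pooled rank 7002), Vps8 (7130) and Vps39 (11042), Rbcn-3B (21285), which acts with Rbcn-3A, and the Rab5 exchange factor gene Rabex-5 (7677). Sbf (6912), Evi5 (7300), nuf (8503), Rep (10887), Rip11 (13395) and Rph (23273) were likewise in the pooled list without passing the IDR limit. No pooled promoter summit was found at Rim, a synaptic effector gene of Rab3, or at dor, a further tethering gene.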

How the data were processed

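ChIP-seq was done on 3 replicates of 1 group, with chromatin sheared to a size range of 200 to 800 bp, per the labels. Per the file headers and labels, the authors deposited peaks on dm6 for each replicate, for the pooled replicates and as an IDR set, each with 1 control. No aligner or peak caller is named in those sources. Peaks were ranked by the authors' deposited signal score. The −log10 q values, also deposited, only describe the lists. The 6706 strongest peaks of a replicate match the IDR set in number.

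Summits were assigned to genes with Ensembl release 115 (BDGP6.54), which uses dm6 coordinates, counting from 1, and sequence was read from RefSeq's copy of that assembly. The genes, classes, partner list and motifs were chosen with earlier results of these data known, so lists are given as counts beside all 13968 protein-coding genes, with no test. A listed copy, VhaM8.9, had no gene of that symbol and was left out. The rule for named genes was to account for every gene, with full values for the 10 highest IDR promoter peaks of each family, the tissue-limited genes with one, and the copies of each subunit. Alternatives changed the TSS window to 200 or 1000 bp, the peaks, the assignment, the classes and the replicates kept. The assignment was tested on simulated peaks. Analyses used Python 3.11.15, numpy 2.4.6, scipy 1.17.1, pandas 2.3.3 and matplotlib 3.10.9.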

Additional observations from a re-analysis of the deposited data

How the results depend on the processing

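In each alternative run, broadly used copies kept a higher share than tissue-limited copies, but the size of every share depended on the setting. A TSS window of 200 bp gave 25% for broadly used copies, 4.55% for tissue-limited copies, 21.2% for V-ATPase genes and 22.2% for Rab genes, against 16.5% of all genes. At 1000 bp the broadly used share was 53.6% and the Rab share 33.3%, against 27.1% of all genes. The 3353 IDR peaks of higher signal gave 17.9%, 4.55%, 15.2% and 8.33% for broadly used, tissue-limited, V-ATPase and Rab genes, against 13.2% of all genes. Counting the gene body with the promoter gave 13.6% for tissue-limited copies and 36.1% for Rab genes, against 29.1%, and the outer TSS alone 39.3% for broadly used copies, against 21.6%. Giving each peak to the nearest coding gene alone, a choice made after seeing the data, gave 28.6%, 4.55%, 21.2% and 19.4%, against 17.2%. Counting the genes of no class as tissue-limited gave 21.95% for that group. No setting left out the X-linked Rab9-like copies. Leaving out 1 replicate gave 32.1 to 39.3% for broadly used copies, 4.55 to 9.09% for tissue-limited copies, 21.2 to 30.3% for V-ATPase genes and 19.4 to 25% for Rab genes; these settings keep fewer peaks by construction. No paired analysis was possible because there is 1 group. Precision is limited by the number of genes in each class, and depth is unknown.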

Other observations

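Of the 27 partner genes, 4 (14.8%) held IDR peaks in the gene body, away from their own start, against 8.94% of all protein-coding genes: nuf and mtd with 3 each, and Rip11 and Evi5 with 2 each. Of these genes, mtd alone also had an IDR promoter summit; the best pooled promoter peaks ranked 8503 at nuf, 13395 at Rip11 and 7300 at Evi5.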
